A study of Mus musculus with 20 samples.

Results

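The stretch described here is the Nanog locus, 200 kb of mouse chromosome 6 (mm10, chr6:122600000-122800000) that holds the genes Apobec1, Gdf3, Dppa3, Nanog and Slc2a3. Its regions were taken by position alone. Peaks of 20 ATAC-seq libraries that overlapped each other were merged into regions, and 62 of the 335855 regions in all fell in this stretch, made of 403 peaks. A further 44 peaks lay on the exons of Nanog itself and were set apart, because the reprogramming vectors carry the same coding sequence.

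ATAC-seq uses the Tn5 transposase to cut and tag open chromatin. The starting cells were mouse embryonic fibroblasts (MEFs, 1 library) and the reference for pluripotency was embryonic stem cells (ESCs, 3 libraries). The other 16 libraries came from MEFs with an Oct4-GFP reporter that were infected with retroviruses for Oct4 together with Nanog (Nanog+Oct4) or with NanogN70 (NanogN70+Oct4), collected on day 0 and on 7 later days up to day 12 (1, 3, 5, 7, 8, 10, 12) with 1 library per day in each path. NanogN70 joins the N-terminal part of SS18, which belongs to the chromatin remodeling complex BAF, to the front of NANOG, and day 0 follows a pair of infection rounds, so day 0 cells already carry the vectors. Oct4 is common to both paths. By the methods, the induction medium was replaced by an ESC medium after 7 days or at a designed time point, and which of these held for the present libraries is not stated. No sorting of the transduced cells is stated, so each library is a mixture in which fewer open cells and weaker opening per cell cannot be told apart.

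NANOG is a homeodomain transcription factor of the early embryo and of ESCs. Its gene is silent in fibroblasts and is switched on late in reprogramming, so that its own promoter is widely used as a sign of established pluripotency. The neighbours have related histories. Dppa3 (Stella) encodes a maternal and germline protein that protects DNA methylation in the zygote, Gdf3 encodes a TGF-beta family ligand related to Nodal, and Slc2a3 (GLUT3) encodes a glucose transporter. Apobec1, a cytidine deaminase gene, closes the stretch on the far side of Gdf3.

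A region counts as open in every library that has a peak there. Regions open in at least 2 ESC libraries and not in MEFs are called ESC-type, those found in MEFs but in none of the ESC libraries MEF-type, and those open in MEFs and all 3 ESC libraries shared. Each peak carries a score (-10 times the base-10 logarithm of the MACS p-value, at least 50) and a summit pileup (the tags stacked at its highest point, not scaled to depth). Pileups are also given relative to the median pileup of the same library over the 14217 regions open in all 20 libraries, and such values are called relative pileups. Read depth is unknown. The lists held 44126 to 107038 peaks in the time course, 125467 in MEFs and 97450 to 116006 in ESCs, and a region without a peak may still be open below the threshold of that list.

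A check of the labels by promoter peaks found all 12 fibroblast marker genes open in MEFs and 9 to 10 in ESCs, and 9 to 10 of 10 ESC marker genes open in ESCs and 6 in MEFs, so promoter peaks separated these cell types only in part. In the time course 6 to 12 fibroblast marker genes and 4 to 9 ESC marker genes had a promoter peak. A pair of NanogN70 libraries stood apart. Day 12 had a promoter peak at 9 of 12 fibroblast marker genes and at 9 of 10 ESC marker genes, while the remaining 15 libraries of the time course had 4 to 6 of the latter. The ESC list is not independent of the locus, since it includes Nanog and Dppa3. It also includes Pou5f1 (Oct4), whose coding sequence the vectors carry and whose promoter had a peak in every time course library. Day 3 had a promoter peak at 12 of 12 leukocyte marker genes, against 1 to 5 in the other NanogN70 libraries, 1 to 3 in the Nanog libraries, 3 in MEFs and 4 to 7 in ESCs. Of the 16 regions of the locus open on NanogN70 day 3, 2 were open in no other library.

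The sequences of 4 stretches show the regions on which the results turn. They are the region at the Nanog start site, which no reprogramming library opened, the region upstream of Dppa3 and the Gdf3 intron, which both paths opened, and the region 44.7 kb upstream of Nanog, which opened in NanogN70 alone. Sequences are RefSeq GRCm38 (the assembly named mm10 by UCSC), plus strand, 5′ to 3′. Capitals mark matches on either strand to an octamer (ATGCAAAT), a SOX motif (CATTGT), a KLF motif (GGGNGTGG), an ESRRB motif (TCAAGGTCA), an AP-1 motif (TGANTCA) or a TEAD motif (GGAATG).
Nanog start site, chr6:122707189-122707488: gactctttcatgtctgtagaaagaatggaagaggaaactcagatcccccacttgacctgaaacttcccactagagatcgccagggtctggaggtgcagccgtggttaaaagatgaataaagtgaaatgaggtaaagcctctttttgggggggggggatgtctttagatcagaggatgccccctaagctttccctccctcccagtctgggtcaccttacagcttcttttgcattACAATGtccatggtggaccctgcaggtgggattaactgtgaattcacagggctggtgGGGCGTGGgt
Upstream of Dppa3, chr6:122624512-122624811: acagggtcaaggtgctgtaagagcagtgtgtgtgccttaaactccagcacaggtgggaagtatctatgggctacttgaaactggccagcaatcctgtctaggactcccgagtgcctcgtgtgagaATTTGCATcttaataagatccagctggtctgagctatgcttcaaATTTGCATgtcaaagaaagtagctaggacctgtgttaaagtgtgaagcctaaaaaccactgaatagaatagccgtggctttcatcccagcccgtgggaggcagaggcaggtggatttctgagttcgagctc
Gdf3 intron, chr6:122608516-122608815: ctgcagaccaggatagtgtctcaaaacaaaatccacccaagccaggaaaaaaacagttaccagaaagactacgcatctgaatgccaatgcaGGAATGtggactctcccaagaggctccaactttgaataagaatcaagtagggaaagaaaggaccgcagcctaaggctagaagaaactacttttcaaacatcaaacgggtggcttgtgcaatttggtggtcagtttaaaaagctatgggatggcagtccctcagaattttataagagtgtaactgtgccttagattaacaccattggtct
Upstream of Nanog, chr6:122662689-122662988: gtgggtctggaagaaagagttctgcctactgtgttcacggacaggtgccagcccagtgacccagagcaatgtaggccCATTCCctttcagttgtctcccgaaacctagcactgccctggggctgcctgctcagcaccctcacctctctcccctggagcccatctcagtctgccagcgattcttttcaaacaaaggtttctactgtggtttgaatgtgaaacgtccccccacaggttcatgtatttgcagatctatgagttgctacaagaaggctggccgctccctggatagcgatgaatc

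The first stretch stops before the first base of any annotated Nanog transcript, which lies 79 bp before the principal start, and its ESC summit lies at base 287. It holds a SOX match 146 bp before the start site and a KLF match 89 bp before it. The stretch upstream of Dppa3 holds 2 octamers, at bases 126 and 170, on both sides of the summit at base 151. The Gdf3 intron and the upstream Nanog region each hold 1 TEAD match, and no other match. Within 150 bp of the summit, the octamer was found in 2 of the 26 ESC-type regions of the locus (7.69%, against 3.46% of ESC-type regions genome-wide and 3.52% of all 335772 regions with a full window). KLF matches were found in 6 of 26 (23.1%, against 17.8% and 11.7%), SOX in 2 (7.69%, against 17.6% and 16.95%), TEAD in 3 (11.5%, against 18.6% and 20.6%) and ESRRB in 1 (3.85%, against 1.54% and 0.712%). AP-1 was found in 0 of 26, against 8.73% and 20.4%. No region of the locus held exact matches to both the octamer and the SOX motif, and 13 of the 26 held none of the 6 motifs. Only exact letters were counted. At the Nanog start site ttttgcat, which differs from the octamer by 1 base, lies just before the SOX match and is not marked. The counts therefore do not show that such sites are absent. These matches are letters in a window and not bound sites.

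The locus was rich in ESC-type regions. Of its 62 regions, 26 were ESC-type (41.9%, against 16.5% of all regions), 6 were MEF-type (9.68%, against 22.2%), 14 were shared (22.6%, against 9.34%), 10 were open in the time course only (16.1%, against 38.7%) and 6 in 1 ESC library alone (9.68%, against 13.3% genome-wide, where this remaining class also takes regions open in MEFs and in some ESC libraries). Among 12476 stretches of 200 kb, the median number of ESC-type regions was 3 and the 95th percentile 13, and 3 stretches held more than the 26 of the Nanog locus. The count itself depends on the peak threshold. With scores of at least 100 it was 18 of 39 regions (46.2%, against 17.9% of all regions), and with equal peak numbers per library 17 of 37 (45.9%, against 15.4%), with 3 and 0 stretches above the locus. In ESCs 38 to 42 regions of the locus were open, in MEFs 20, in the Nanog libraries 9 to 17 and in the NanogN70 libraries 10 to 18. The ESC libraries shared most of these regions, with 20 of the 26 ESC-type regions open in all 3.

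**Figure D1:**
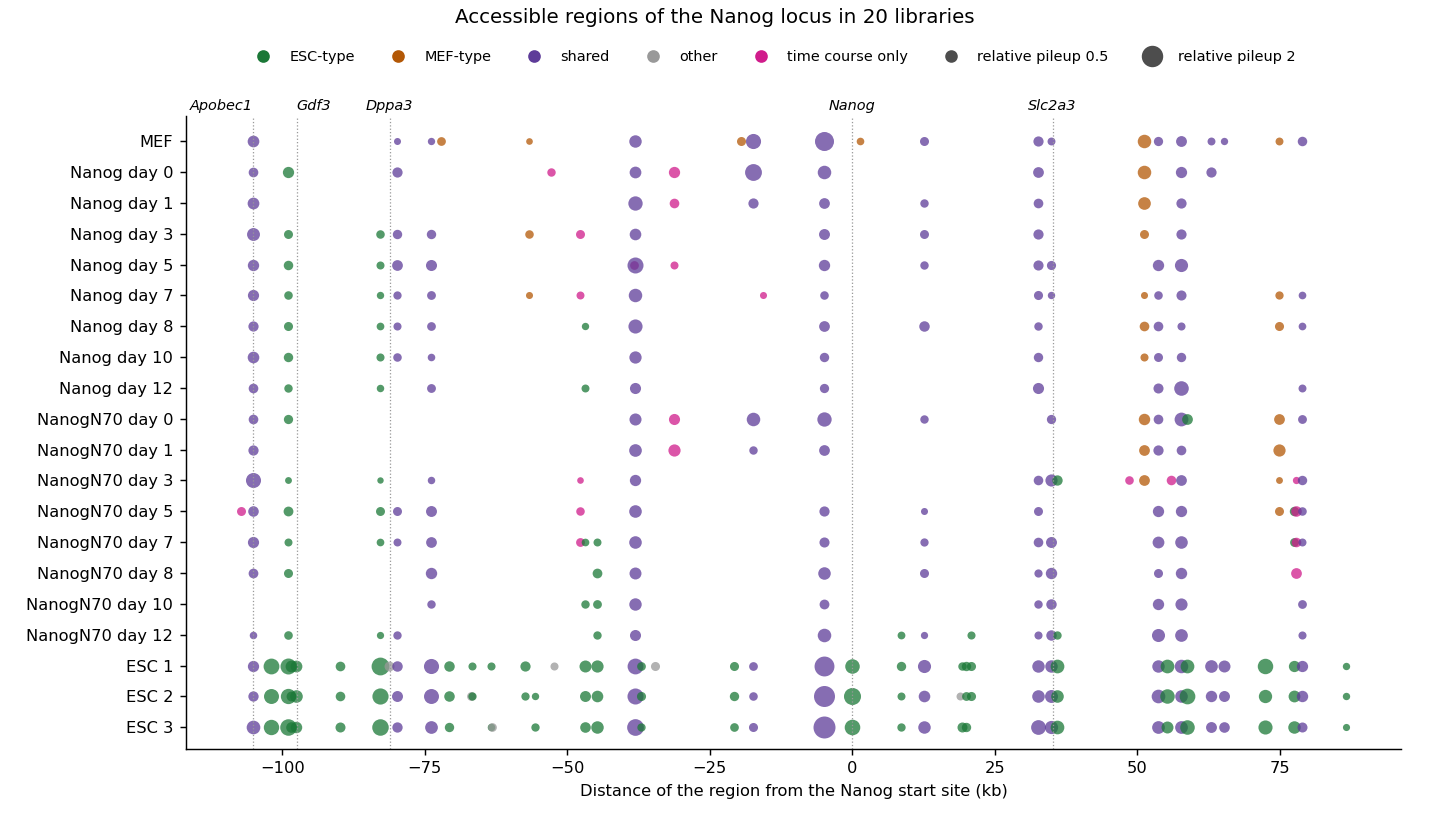
Each row is 1 library and each dot a region open in it, placed by the distance of its summit from the Nanog start site (kb), coloured by class and sized by relative pileup. Dotted lines mark gene start sites. A peak of NanogN70 day 1 over Nanog exon 2 is left out here. ESC-type regions fill the ESC rows, of which 23 to 25 were open, and are sparse in the time course rows, with at most 6. The column at the Nanog start site is empty outside ESCs.

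At the Nanog start site no library of either path had a peak. The start site region (chr6:122706909-122707692, summit 93 bp before the start) was open in all 3 ESC libraries, with pileups of 33, 56 and 35 and a relative pileup of 1.24 ± 0.22 (SD, n = 3), and in neither MEFs nor any of the 16 time course libraries. The 11 peaks set apart at exon 1 began 34 bp or more past the end of this region. Were only peaks wholly inside Nanog exons set apart, such peaks would count toward the Nanog promoter on 5 Nanog and 3 NanogN70 days. MEFs had a weak peak in the first intron, 1.44 kb past the start, with a pileup of 7 and a score of 79.2, so a promoter window of 2 kb on each side counts MEFs as open while the start site was not.

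The region 4.96 kb upstream of Nanog behaved otherwise. This region (chr6:122701939-122703307) had the highest ESC scores of the locus, 1791, 2439 and 1861, and it was open in MEFs as well, with a score of 1673. It is named for that score, after its values were seen. Its pileup was 73 in MEFs and 66, 88 and 74 in the ESC libraries. In the Nanog libraries it was 14, 8, 12, 16, 10, 16, 8 and 8 over the 8 days. In the NanogN70 libraries it was 24, 8, 10, 16, 19, 11 and 36 on days 0, 1, 5, 7, 8, 10 and 12, with no peak on day 3. As relative pileup it was 1.87 in MEFs and 2.31 ± 0.24 (SD, n = 3) in ESCs, and 0.26 to 1.00 in the 15 time course libraries with a peak. None of these reached MEFs or ESCs, and the highest was 43.3% of the ESC mean.

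The region 44.7 kb upstream of Nanog was ESC-type and opened in NanogN70 alone. At chr6:122662490-122663541 its ESC pileups were 22, 23 and 21. In NanogN70 it had pileups of 8, 10, 8 and 10 on days 7, 8, 10 and 12, with scores of 96.3, 113, 109 and 170, and no Nanog library had a peak. It therefore had a peak in the last 4 NanogN70 libraries and none in the 8 Nanog libraries. Its relative pileup in those NanogN70 libraries was at most 57.2% of the ESC mean. It does not involve the day 3 library. A second region with at least 4 days in one path and none in the other lay 77.9 kb downstream of Nanog, in the long Slc2a3 intron (chr6:122785279-122785803). It was open in neither MEFs nor ESCs and had NanogN70 pileups of 9, 11, 14 and 13 on days 3, 5, 7 and 8, of which 3 remain without day 3. Both were picked by this pattern, so no test is given.

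Upstream of Dppa3, both paths opened the same ESC-type region at low level. This region (chr6:122624290-122625022, 1.75 kb before the Dppa3 start) had the highest mean ESC score of the ESC-type regions, 974, with pileups of 52, 50 and 40. In the Nanog libraries its pileup was 6, 6, 6, 6, 5 and 4 on days 3, 5, 7, 8, 10 and 12. In NanogN70 it was 5, 7, 7 and 6 on days 3, 5, 7 and 12. MEFs and days 0 and 1 of both paths had no peak. All 10 time course peaks had scores of 50.9 to 108 and relative pileups of at most 21.1% of the ESC mean. These sit near the calling threshold, so single days without a peak carry little weight. An intronic region 1.24 kb past the Dppa3 start was shared, and a peak 129 bp before the start occurred in 1 ESC library only.

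The Gdf3 intron was open on day 0 in both paths, had no peak on day 1 in either, and was open again from day 3, except on NanogN70 day 10. The ESC-type region 1.42 kb past the Gdf3 start (chr6:122607643-122608807) had ESC pileups of 41, 44 and 40 and no MEF peak. In the Nanog libraries its pileup was 9, 7, 10, 10, 10, 8 and 6 on days 0, 3, 5, 7, 8, 10 and 12. In NanogN70 it was 8, 7, 9, 8, 8 and 11 on days 0, 3, 5, 7, 8 and 12. The relative pileup was at most 44.2% of the ESC mean of 1.27 ± 0.11 (SD, n = 3). The Gdf3 start site itself, with ESC pileups of 20, 28 and 17, and a second region over a non-coding part of a Gdf3 exon, with 40, 42 and 34, were open in no time course library.

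At the principal Slc2a3 start more NanogN70 than Nanog libraries were open. The start site region (chr6:122741889-122743147, shared) had pileups of 23, 30 and 24 in ESCs and 8 in MEFs. In the Nanog libraries it had peaks on days 5 and 7 only, with pileups of 9 and 6. In NanogN70 the pileups were 8, 41, 20, 15, 13 and 19 on days 0, 3, 7, 8, 10 and 12. The day 3 value came from the library with leukocyte promoter peaks, and its relative pileup of 0.68 was below the 0.72 to 0.83 of the ESC libraries. Without it 5 NanogN70 days remain against 2 Nanog days, a difference that was not tested. An ESC-type region 0.745 kb before this start was open with NanogN70 on days 3 and 12 (pileups 27 and 10) and in no Nanog library. The start used is that of the principal transcript, since the outermost annotated Slc2a3 start lies past the end of the stretch. Around that outer start the direction turned, with promoter peaks on 8 Nanog and 7 NanogN70 days.

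**Figure D2:**
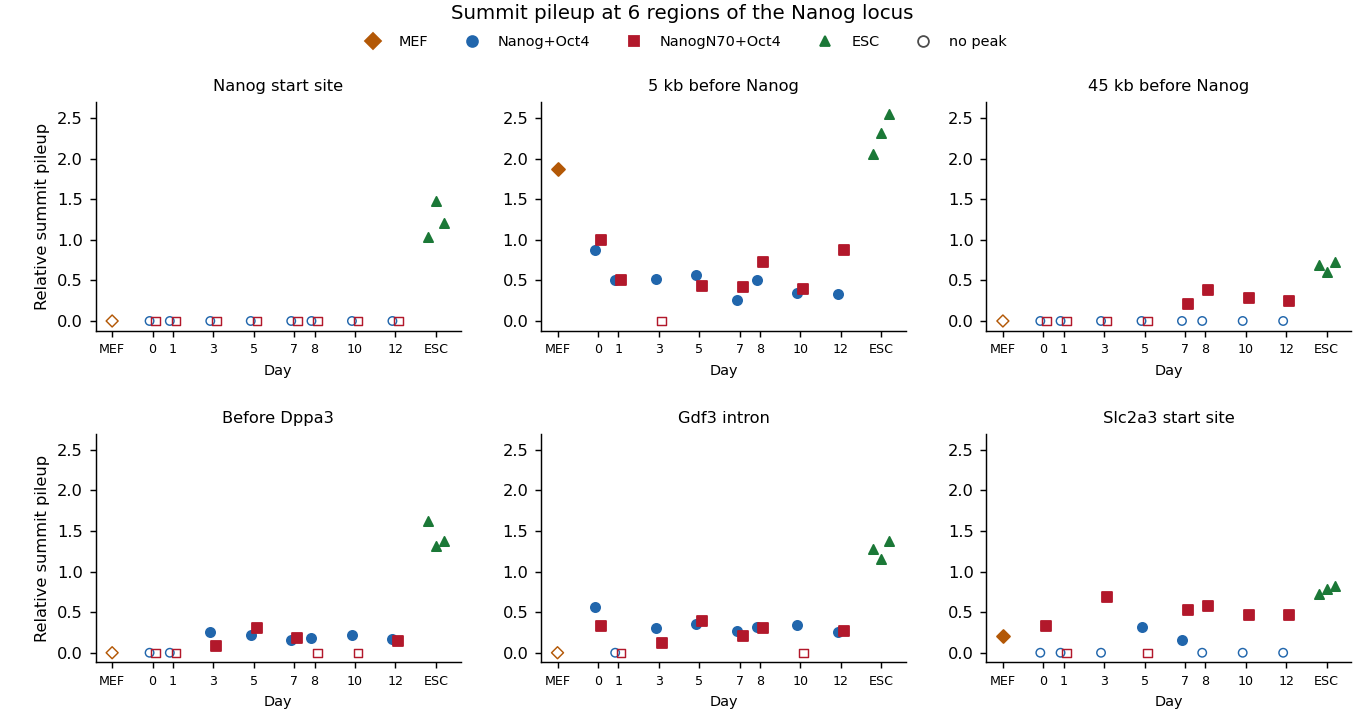
Summit pileup relative to the median of 14217 regions open in all libraries (vertical axis) by day, with MEFs at the left and the 3 ESC libraries at the right of each panel. Open symbols at 0 mark libraries without a peak. The Nanog start site is empty outside ESCs, the region 5 kb upstream is high at both ends and 0.26 to 1.00 between, and the region 45 kb upstream has NanogN70 peaks on the last 4 days alone.

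Counted by promoter, a peak within 2 kb of the start was found on 0 Nanog and 0 NanogN70 days for Nanog, on 7 and 6 for Gdf3, 7 and 4 for Dppa3, 2 and 6 for Slc2a3 and 8 and 7 for Apobec1. Over both paths this made 13 of 16 libraries for Gdf3, 11 for Dppa3, 8 for Slc2a3 and 0 for Nanog. The order of Gdf3, Dppa3 and Slc2a3 changed with the setting, and with 1 library a day there is no spread by which to separate them. With scores of at least 100, Nanog and NanogN70 days were 6 and 3 for Gdf3, 2 and 1 for Dppa3 and 1 and 5 for Slc2a3, and with equal peak numbers per library 7 and 4, 3 and 2, and 1 and 5. Within 1 kb of the start, neither Gdf3 nor Dppa3 had a peak in any time course library, since their open regions lie 1.24 to 1.75 kb away.

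In all, 9 of the 26 ESC-type regions opened in at least 1 time course library, a share near that of the genome (34.6%, against 33.9%). On at least 1 Nanog day 3 opened (11.5%, against 17.3% of ESC-type regions genome-wide), and on at least 1 NanogN70 day 9 (34.6%, against 30.8%). There were 6 that opened with NanogN70 and on no Nanog day (23.1%, against 16.6%) and 0 the other way round (against 3.06%). The regions of Dppa3 and Gdf3 were the 2 open on at least 4 days of both paths (7.69%, against 2.83%). The remaining ESC-type regions opened on few days. The region 46.9 kb upstream of Nanog had pileups of 5 and 5 on Nanog days 8 and 12 and 7 and 7 on NanogN70 days 7 and 10. The regions 8.51 kb downstream of Nanog and 20.8 kb downstream, over a non-coding part of a Slc2a3 exon, opened on NanogN70 day 12 alone, with pileups of 8 and 9. The regions 58.8 kb and 77.5 kb downstream opened on NanogN70 day 0 (12) and on days 5 and 7 (8 and 11). All 9 were open on some NanogN70 day other than day 3.

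The other 17 ESC-type regions opened on no day (65.4%, against 66.1% genome-wide), and 12 of them were open in all 3 ESC libraries. They include the Nanog start site and a region 72.5 kb downstream of Nanog (chr6:122779879-122780351) with ESC pileups of 38, 32 and 28. The median of the mean ESC score was 250 in the 9 regions that opened and 88.8 in the 17 that did not, against 141 and 98.4 genome-wide. Over the genome the share that opened rose with ESC score, from 22.9% in the lowest of 4 equal bins (scores up to 78.2) to 52.3% in the highest (from 185), and at the locus it was 1 of 8 and 5 of 9. The Nanog start site, with a mean score of 334, is in the highest bin.

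The number of ESC-type regions open per library was 1, 0, 2, 2, 2, 3, 2 and 3 with Nanog and 2, 0, 3, 3, 5, 2, 2 and 6 with NanogN70 from day 0 to day 12, against 25, 24 and 23 in ESCs. Genome-wide, 1.57% to 9.08% of ESC-type regions were open in the Nanog libraries and 3.56% to 15.4% in the NanogN70 libraries, higher with NanogN70 on 8 of 8 days. At the locus NanogN70 was higher on 5 of 8 days, lower on 1 and equal on 2, by 1 region on average (2.88 against 1.88). A two-sided exact permutation test that flips the sign of each daily difference found no separation of the paths (exact p = 0.156, adjusted p = 0.316 over the 3 tests made). With a score of at least 100 the difference was 1.25 (exact p = 0.0312) and with counts scaled to the number of peaks 0.985 (exact p = 0.0469), both unadjusted, while with equal peak numbers per library it was 0.5 (exact p = 0.125), so the call depends on the threshold and the scaling. Without day 12, whose NanogN70 library stood apart on the ESC markers, it was 0.714 (exact p = 0.312). Over all regions of the locus, NanogN70 libraries averaged 14.1 open regions and Nanog libraries 12.75, higher with NanogN70 on 6 of 8 days (exact permutation p = 0.211, adjusted p = 0.316). The excess of 1 region on day 1 is a peak with its summit in Nanog exon 2, where vector and gene cannot be told apart. With peaks whose summit lies in a Nanog exon set apart, NanogN70 was higher on 5 days, lower on 2 and equal on 1, by 1.25 regions on average (exact p = 0.266). Each path is a single time course whose days follow one another, so the tests compare these libraries and say nothing of independent transductions. The smallest p that the sign patterns of 8 days allow is 0.00781.

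**Figure D3:**
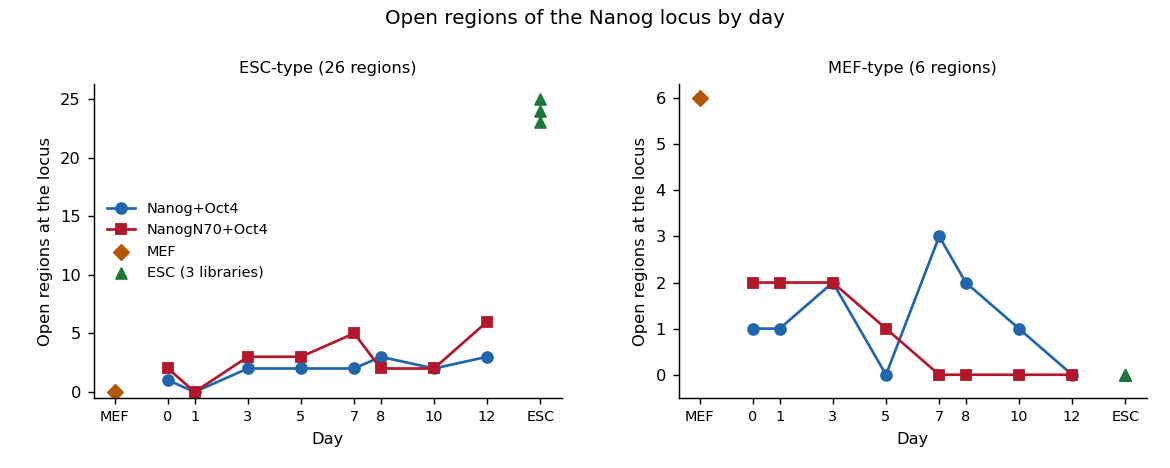
Number of ESC-type (left, of 26) and MEF-type (right, of 6) regions of the locus open in each library (vertical axis) by day, with MEFs at the left and the 3 ESC libraries at the right of each panel. ESC-type counts stay at 0 to 6 in both paths against 23 to 25 in ESCs. MEF-type counts stay at 0 to 3 against 6 in MEFs.

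Of the 6 MEF-type regions, 3 were open in no time course library (50%, against 44.4% of MEF-type regions genome-wide), among them the weak peak in the first Nanog intron. The strongest lay 51.3 kb downstream of Nanog (chr6:122758599-122759085), with a pileup of 34 in MEFs. In the Nanog libraries it was 14, 12, 7, 5, 12 and 5 on days 0, 1, 3, 7, 8 and 10. In NanogN70 it was 14, 8 and 30 on days 0, 1 and 3, with no peak from day 5 on. As relative pileup it was 0.87 in MEFs and 0.88, 0.75, 0.30, 0.13, 0.38 and 0.22 on those Nanog days, and 0.58, 0.50 and 0.50 on those NanogN70 days, so on this scale Nanog day 0 was level with MEFs and NanogN70 day 3 with day 1. Another, 74.8 kb downstream, had a pileup of 8 in MEFs, of 12, 11, 7 and 7 on NanogN70 days 0, 1, 3 and 5, and of 9 and 10 on Nanog days 7 and 8. Its relative pileup was 0.21 in MEFs, 0.50, 0.69, 0.12 and 0.30 on those NanogN70 days, and 0.24 and 0.31 on those Nanog days, above MEFs in all but NanogN70 day 3. MEF-type regions open per library averaged 1.25 with Nanog and 0.875 with NanogN70 (exact permutation p = 0.656).

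Of the 14 shared regions, 2 were open in all 20 libraries (14.3%, against 45.3% of shared regions genome-wide). One, 38.04 kb upstream of Nanog (chr6:122669371-122669760), had pileups of 28 in MEFs, 40, 49 and 41 in ESCs, 10 to 36 in the Nanog libraries (median 16) and 12 to 34 in NanogN70 (median 18.5). The other, 57.7 kb downstream (chr6:122764191-122765596), had 20 in MEFs, 28, 28 and 22 in ESCs, 7 to 25 with Nanog (median 9.5) and 6 to 31 with NanogN70 (median 20.5). At the upstream region NanogN70 had the higher pileup on 4 of 8 days, the higher score on 4 and the higher relative pileup on 2. At the downstream region its score was higher on 8 of 8 days (mean 486, against 160 with Nanog), its pileup on 6 and its relative pileup on 5. These regions were picked for being open throughout, and the path differences were not tested. By contrast a region 65.2 kb downstream, open in MEFs (pileup 6) and in ESCs (21, 20 and 14), was open on no day, and one 17.4 kb upstream was open on days 0 and 1 of both paths alone. That region had a pileup of 44 in MEFs, 23 and 7 with Nanog on days 0 and 1, 21 and 4 with NanogN70, and 9, 10 and 9 in ESCs. As relative pileup it was 1.13 in MEFs, 1.44 and 0.44 with Nanog, 0.88 and 0.25 with NanogN70 and 0.26 to 0.31 in ESCs, so day 0 was above MEFs with Nanog and below them with NanogN70. A region 31.3 kb upstream, in neither MEFs nor ESCs, was also open on days 0 and 1 of both paths and again on Nanog day 5.

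The peaks set apart over the Nanog exons kept near the coding sequence where the rule left them room. No MEF or ESC library had a peak set apart there, while the Nanog libraries had 25 and the NanogN70 libraries 19. In exon 1 these peaks reached at most 56 bp before the coding part, although that exon has 215 bases before the start codon. In exon 4 they reached at most 47 bp past the coding part, although 1081 bases of that exon follow the coding end. At the other exon ends the coding part ends with the exon. There the margin of 100 bp fixed how far a peak set apart could reach, so those ends show nothing. In exon 4 the pileup was 390, 232, 79, 30, 30, 20, 17 and 7 with Nanog over the 8 days. With NanogN70 it was 332, 224, 41, 24, 20, 10 and 8 from day 0 to day 10, with no peak on day 12. Exon 3, the shortest, had peaks on days 0 and 1 only, with 152 and 102 for Nanog and 112 and 82 for NanogN70. Exon 1 had 511 and 366 on day 0, and its last peak was on day 12 with Nanog and on day 5 with NanogN70. As relative pileup, exon 1 on day 0 was 31.9 with Nanog and 15.2 with NanogN70 (ratio 0.477, against 0.716 in tags), and exon 4 on day 3 was 3.43 and 0.68 (0.199, against 0.519), the latter in the library with leukocyte promoter peaks. Other days lay closer, with relative ratios on day 1 of 0.898, 0.804 and 0.966 for exons 1, 3 and 4. The only relative ratios above 1 were those of exon 1 on day 5 (1.22) and exon 2 on day 8 (1.05). NanogN70 day 12, without any exon peak, was also the time course library with the most ESC-type regions of the locus open (6). NanogN70 day 10, with 8 in exon 4, had 2 such regions open, and Nanog day 12, with 7 in exon 4, had 3. A link between exon peaks and open regions was not tested. Reads of the vector and of the gene cannot be told apart in these exons.

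A peak of NanogN70 day 1 over exon 2 ran 104 bp past the exon end, beyond the margin of 100 bp, and so was not set apart. It had a pileup of 236 with its summit in the exon, and it is counted among the 62 regions, as open in the time course only.

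**Figure D4:**
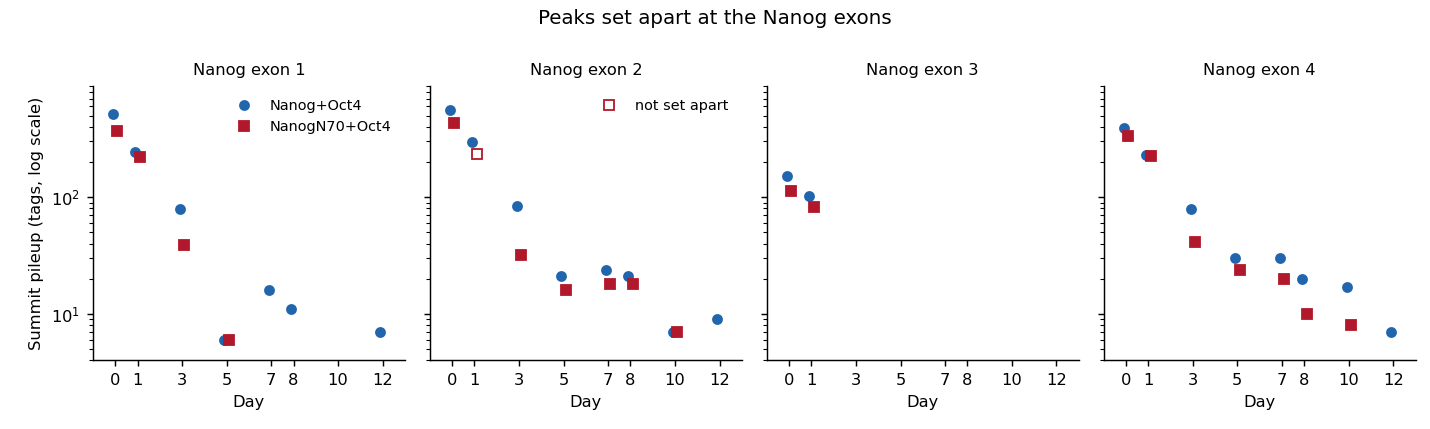
Summit pileup in tags (log scale) of the peaks set apart at the 4 Nanog exons, by day, for the Nanog and NanogN70 libraries. The open square is the NanogN70 day 1 peak that was not set apart. No symbol means no peak. Exon 4 goes from 390 and 332 on day 0 to 7 on day 12 with Nanog and to no peak with NanogN70.

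Among 22 genes of the pluripotency network, all had a promoter peak in at least 2 ESC libraries (against 68.4% of all protein-coding promoters) and 12 also in MEFs (against 66.8%). Of the 10 without a MEF peak, 3 had a promoter peak on at least 1 Nanog day, 8 on at least 1 NanogN70 day and 2 on none. Of all 1266 protein-coding promoters with ESC and no MEF peaks, the shares were 39.3%, 58.9% and 37%. The 2 were Dppa4, which neighbours Dppa2, and Tet1, a DNA demethylase. Lin28a, an RNA-binding regulator of let-7, had a promoter peak on 0 Nanog and 5 NanogN70 days, and Fgf4, a growth factor gene, on 0 and 2. Sall4 had one on 6 and 7 days. Prdm14 had one on 1 day of each path, and Nr5a2, Zfp42 and Dppa5a had one on 1 NanogN70 day and no Nanog day. Each of these single days is 1 library. Pou5f1 (Oct4), counted among both the 3 and the 8, had one in all 16 libraries, but the vectors carry its coding sequence too. Likeness to other promoters was measured by Pearson's r of log2(1 + relative pileup) over the 20 libraries, with a library without a peak entered as 0. The promoter of Nanog had a peak in 4 of the 20, so its r mainly follows which libraries had a peak. For the 328 promoters that the 3 ESC libraries all opened and the time course never did, the median r with Nanog was 0.976. The highest were Dppa2 (Pearson r = 0.992), Hpse2 (0.992) and Hus1b (0.992), all without a peak in the time course. For Dppa3 they were Sfi1 (0.960), Olfr95 (0.921) and Pcdhga11 (0.917), for Gdf3 Fbxw10 (0.937), Sfi1 (0.903) and Accsl (0.895), and for Slc2a3 Lag3 (0.893), Pkn3 (0.883) and Lad1 (0.867). Each value is a description over the same 20 libraries, whose depth is unknown and whose median pileups over the common regions ran from 16 to 60.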

How the data were processed

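ATAC-seq libraries were made from MEFs, ESCs and transduced MEFs. As per the labels and the methods, the authors trimmed reads with Trim Galore 0.6.4, aligned them to mm10 with Bowtie2 2.4.5, removed repetitive, mitochondrial and low-quality reads (mapping quality under 30) with SAMtools 1.16.1, and called peaks in each library with MACS 1.4.2 with a shift size of 25 bp, no model and all duplicates kept. No control is named. The values deposited are a score for each peak (-10 log10 p) and, for each summit, a signal in tags (pileup). The cell number per library differs between the labels and the methods and is not given here. For 3 samples the title says ESC although the source field says MEF, and the title was followed.

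Peaks sharing at least 1 bp were merged into regions with Python 3.11.15, NumPy 2.4.6, pandas 2.3.3 and SciPy 1.17.1, after peaks lying within 100 bp of a Nanog exon at both ends had been set apart. Genes and exons were taken from GENCODE M21 on GRCm38, the assembly of mm10, and promoters were 2 kb on each side of the start of the principal transcript. On all 21 chromosomes the last region lay inside the reference length, and 14 other sequence names were used only in peak totals. Paths were compared by a two-sided exact permutation test over the signs of 8 daily differences with Benjamini-Hochberg adjustment over 3 tests, after the scripts were tested on simulated data. Regions named were those at the 4 genes, those open in all 20 libraries, the ESC-type regions that opened or had the 5 highest mean ESC scores, and those open on at least 4 days of one path and none of the other. The region 5 kb upstream of Nanog and the MEF-type, shared and time-course-only regions 51.3, 74.8 and 65.2 kb downstream and 17.4 and 31.3 kb upstream were named after their values were seen. The members and lists were chosen with earlier results of these data known. Alternatives were a score of at least 100, equal peak numbers, scaling, a merge at 100 bp of overlap, other rules for the exon peaks, for ESC-type regions and for promoters, and leaving out each day or ESC library.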

Additional observations from a re-analysis of the deposited data

How the results depend on the processing

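Of 46 recomputed path tests, 42 kept their direction and side of the threshold. Of 49 recomputed counts without a test, 38 stayed within 1.5 times the main count (regions) or inside the 95% binomial interval of the main count (promoter days), a wide margin with 8 days. The excess of ESC-type regions in NanogN70 libraries passed an unadjusted exact permutation p of 0.05 with scores of at least 100 (1.25, p = 0.0312) and with counts scaled to the number of peaks (0.985, p = 0.0469), and leaving out 1 day gave 0.714 to 1.29 (p = 0.0625 to 0.312). With equal peak numbers per library it was 0.5 (exact p = 0.125), the lowest of 18 alternatives. The excess over all regions kept its sign in 14 of 14 alternatives (0.5 to 2). The MEF-type difference of -0.375 went to 0 with scores of at least 100 and without day 7, and leaving out 1 day gave -0.571 to 0. The number of ESC-type regions was 17 with equal peak numbers per library and 21 to 23 when 1 ESC library was left out and both others had to be open. With only peaks wholly inside Nanog exons set apart, added after the data were seen, Nanog promoter days became 5 (Nanog) and 3 (NanogN70). Alternatives that only remove peaks or narrow the window could not raise its count of 0. Dppa3 promoter days became 3 (Nanog) with equal peak numbers per library, and 2 (Nanog) and 1 (NanogN70) with scores of at least 100. With a promoter of 1 kb on each side, the days became 0 and 0 for both Dppa3 and Gdf3. With the outermost start site, an alternative added after the data were seen, Slc2a3 had 8 Nanog and 7 NanogN70 days, against 2 and 6 with the principal start. The day numbers served as pairs in all path tests. A day is a time point and not a replicate, and no other paired analysis was possible because each day and path has 1 library. Unknown depth limits every statement that a region was closed.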

Other observations

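The stretches of 200 kb with at least as many ESC-type regions as the Nanog locus (7 of 12476, the Nanog locus included) were few, and they were picked for that count. The highest count, 31, was on chromosome 1 at 13000000 to 13200000, where the only protein-coding start is that of Prdm14, a regulator of naive pluripotency, and 8 of the 31 opened in the time course. Stretches with 27 held Gpnmb and Malsu1 on chromosome 6 at 49000000 to 49200000 and Bcat1 and Lrmp on chromosome 6 at 145000000 to 145200000, with 8 opened in each. The 3 others with 26 held Dst, H2al2a and Rbpms, with 9, 8 and 10 opened, against 9 at the Nanog locus.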
